A study of Schizosaccharomyces pombe with 12 samples.

Results

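The set described here held 45 genes, chosen by opposite changes in a pair of single mutants of the fission yeast Schizosaccharomyces pombe. A gene belonged to the set where its mean level was higher in ssu72-C13S cells and lower in asp1-H397A cells than in wild type (WT), by at least 0.5 on the log2 scale in each. Levels for this choice were CPM, counts scaled to a common library total, with 0.5 CPM added before the log. Non-coding RNA rows with SPNCRNA identifiers were left out, and the highest of the 4 group means had to reach 5 CPM. The table held 6986 genes, of which 5462 were not SPNCRNA rows and 4825 of those passed the level limit. Of these 4825 genes, 447 passed the limit in ssu72-C13S, 631 passed it in asp1-H397A, and 45 passed both. The opposite pattern, lower in ssu72-C13S and higher in asp1-H397A, held for 23 genes. The question asked of the set was which allele's level is found when both alleles are present in 1 strain.

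Polyadenylated RNA was sequenced from 12 libraries of log-phase cultures grown at 30 °C in YES medium, 3 for each of 4 genotypes. The genotypes were asp1-H397A ssu72-C13S aps1∆ (called the triple mutant below), ssu72-C13S, asp1-H397A and WT. The triple mutant is labelled as deleted for aps1 in addition to carrying both alleles, and no strain with the 2 point mutations alone was analysed here, so the effect of the aps1 allele cannot be told apart from that of joining the alleles. Each genotype is represented by 1 strain, and whether the 3 libraries came from separate cultures is not stated beyond the word replicate, so p-values measure the spread between these libraries.

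Ssu72 is a protein phosphatase of the cleavage and polyadenylation factor that removes phosphate from the carboxy-terminal repeats of RNA polymerase II, and C13S changes its active-site cysteine. Asp1 carries a kinase domain that makes inositol pyrophosphates and a pyrophosphatase domain that removes them, and H397A inactivates the pyrophosphatase. Aps1 is a Nudix-type hydrolase that also breaks down inositol pyrophosphates. Inositol pyrophosphates are signalling molecules that, in fission yeast, bear on RNA 3′ processing, transcription termination and the phosphate-responsive genes.

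Total gene counts lay between 23115806 and 29124916 per library. Each library was rescaled by trimmed mean of M-values (TMM) factors, which ranged from 0.847 to 0.948 in the triple mutant and 1.08 to 1.09 in ssu72-C13S, and likewise 0.904 to 1.004 in asp1-H397A and 1.09 to 1.13 in WT. CPM values below are TMM-scaled unless library totals are named. The set was defined on library totals: with TMM-scaled CPM in the same rule 28 genes passed, 27 of them in the set. The row of aps1 held 38.9 ± 2.08 CPM in the triple mutant, 77.9 ± 1.30 CPM in ssu72-C13S, 106 ± 3.28 CPM in asp1-H397A and 113 ± 9.20 CPM in WT (SD, n = 3 each), so it was lowest in the strain labelled as deleted but not at 0, and where in the gene these reads fall is not given by counts. The point mutations cannot be checked from counts. Replicate 1 of the triple mutant and replicate 3 of asp1-H397A stood apart from the other libraries of their genotypes, with chi-square values per gene of 38.0 to 55.1 against the others, where all remaining replicate pairs gave 3.20 to 11.99. Deviations of these 2 libraries from their group means correlated at 0.638 across genes, and what they share was not tested. Markers of the P mating type summed to 654 to 822 CPM in the triple mutant, 939 to 964 CPM in ssu72-C13S, 793 to 984 CPM in asp1-H397A and 731 to 796 CPM in WT, and M-type markers to 305 to 357 CPM in the triple mutant, 371 to 377 CPM in ssu72-C13S, 401 to 469 CPM in asp1-H397A and 387 to 410 CPM in WT, with mat1-Mc at 0 in every library. Both marker lists held map4 and mam2, and sxa1 alone had 579 to 726 CPM of the P-type sum in the triple mutant. The mat3-Mc row was also near 0, at 0.0845 CPM or less, while the M-type gene mfm2 averaged 29.6 to 102 CPM. The 0 of mat1-Mc is therefore not read as an absence of M-type expression. The part of these markers in the results was not tested. In cultures measured in bulk, a change in every cell and a change in the share of cells of 1 state cannot be told apart.

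The changes that selected the set are a description and were not tested. On library totals the largest gap between the 2 single mutants belonged to str1, a siderophore-iron transporter, with a log2 change of 3.38 in ssu72-C13S and -1.68 in asp1-H397A. Members close inside the limit included opt3 and npg1 on the ssu72-C13S side, at 0.50 and 0.52, and sno12 and mag1 on the asp1-H397A side, each at -0.51. Just outside were tgd1, SPAC977.14c and tht2 on the ssu72-C13S side, at 0.49, 0.47 and 0.46, and mug45, SPCC1235.01 and wtf5 on the asp1-H397A side, at -0.47, -0.46 and -0.45. By level, opt3 (5.02 CPM), prl65 (5.16 CPM) and mde5 (5.20 CPM) were just inside, and gst1 (4.38 CPM), hsp3102 (3.30 CPM) and SPAC4F10.17 (3.26 CPM) just outside. On the TMM scale the median log2 change of the 45 genes was 1.19 in ssu72-C13S and -0.72 in asp1-H397A, each against WT.

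In the triple mutant, members differed in which single mutant they lay near. The iron genes fip1 and fio1 lay above the high ssu72-C13S level and str1 just below it, the chaperone genes ssa1 and hsp16 fell below both single mutants, and most others lay between the single mutants. The triple libraries entered the choice only through the level limit, which opt3 met by its triple mean alone (5.02 CPM on library totals). The WT libraries were used throughout the choice, and all 45 genes passed the filter on low counts. Against WT, 14 of the 45 genes were higher in the triple mutant, beside 26.2% of all 6189 genes tested, and 18 were lower, beside 25.7%, in quasi-likelihood tests of edgeR at an adjusted p under 0.05 (Benjamini-Hochberg, over all genes tested). The other 13 did not pass. Of the 5071 genes tested other than SPNCRNA rows, 1434 were higher and 1056 lower. The median log2 fold change of the set against WT was -0.18, where the median of all genes tested was -0.01 and that of genes other than SPNCRNA rows 0.03. With TMM-scaled CPM in the rule 28 genes passed, of which 7 were higher and 16 lower than WT, with a median of -0.59. With a threshold of 0.75 the median was -0.27 over 19 genes. The same rule with a minimum of 20 CPM kept 25 genes with a median of 0.21, and with a threshold of 1 it kept 8 genes with a median of 0.03, so the size and sign of the set's median depended on where these limits were placed.

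Against ssu72-C13S, 3 members were higher in the triple mutant, beside 28.8% of all genes, and 37 were lower, beside 27.5%, with a median log2 fold change of -1.39 where all genes had 0.01. Against asp1-H397A, 26 members were higher, beside 15.7% of all genes, and 4 were lower, beside 21.1%, with a median of 0.57 where all genes had -0.01. Since the members were chosen for high values in ssu72-C13S and low values in asp1-H397A, the directions of these counts are partly set by the choice. The same holds for every test of a single member against ssu72-C13S or asp1-H397A given below. Such p-values rest partly on values that chose the gene. Under the rule with TMM-scaled CPM, 14 members differed from asp1-H397A in the triple mutant, 13 of them higher and 1 lower. The 3 genes higher than in ssu72-C13S were fip1, fio1 and opt3, the last of which met the level limit only in the triple mutant. The 4 lower than in asp1-H397A were ssa1, hsp16, SPAC22F8.05 and sul1, the last 2 of them named after their values were seen. On the TMM scale hsp16, SPAC22F8.05 and sul1 had log2 fold changes of -0.40, -0.30 and -0.30 in asp1-H397A against WT, short of the 0.5 limit. That of opt3, at -0.46, also fell short, while ssa1 had -0.63.

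**Figure D1:**
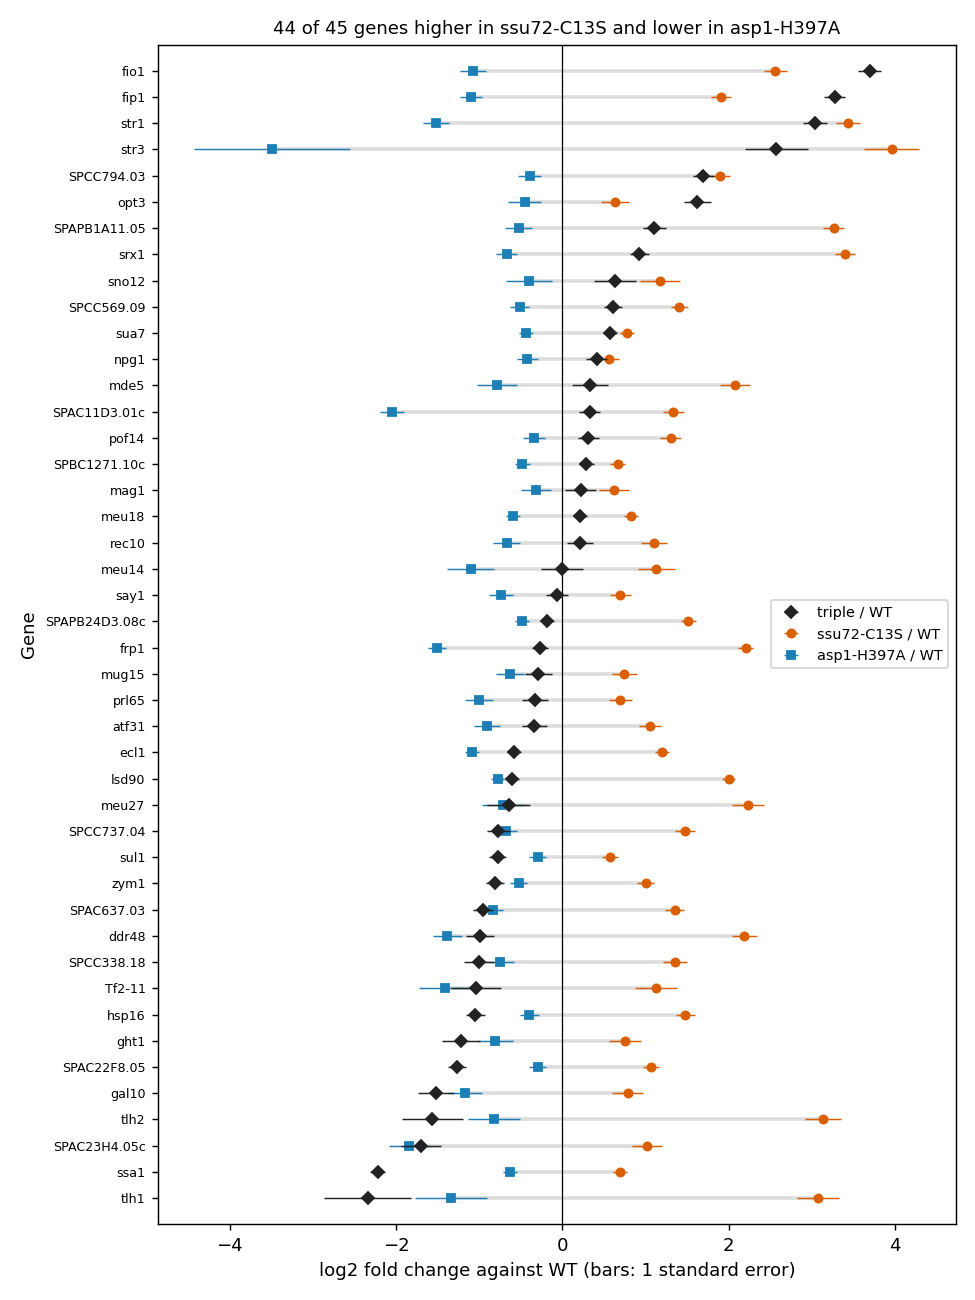
Log2 fold changes against WT (x axis; bars are 1 standard error of the fit) of the triple mutant (black diamonds), ssu72-C13S (orange circles) and asp1-H397A (blue squares) for 44 of the 45 genes, ordered from top to bottom by the triple mutant. The ssu72-C13S and asp1-H397A values chose the genes; the triple mutant runs from 3.69 for fio1 to -2.34 for tlh1.

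Combining the 3 comparisons separated the members into patterns. The parts of each pattern that concern ssu72-C13S and asp1-H397A are partly set by the choice of genes. Shares of these patterns over all genes were not computed, so they are a description. A group of 8 members was higher than WT and asp1-H397A but lower than ssu72-C13S, among them str1, str3, srx1 and meu18. A further 3, namely SPCC794.03, npg1 and sua7, were higher than WT and asp1-H397A without passing the test against ssu72-C13S. On the TMM scale these 3 had log2 fold changes of -0.40, -0.42 and -0.44 in asp1-H397A against WT, short of the 0.5 limit. The 3 members above both single mutants passed all 3 comparisons, as did the 4 below both. A group of 12 members was lower than WT and ssu72-C13S and did not pass against asp1-H397A; it held ddr48, lsd90, zym1, ght1, gal10, Tf2-11, tlh1, tlh2 and 4 uncharacterised genes. Another 2, ecl1 and frp1, were lower than WT and ssu72-C13S yet higher than asp1-H397A. There were 8 members that passed no test against WT but lay below ssu72-C13S and above asp1-H397A, including rec10, meu14, mde5 and atf31. The remaining 5 passed in 1 comparison only.

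The place of the triple mutant was expressed on the log2 scale, with 0 at the asp1-H397A level and 1 at the ssu72-C13S level. Its median over the 45 genes was 0.34, close to the median of 0.36 for WT on the same scale, and the medians of the 3 triple libraries were 0.35, 0.30 and 0.26. Under the rule with TMM-scaled CPM the median position of the triple mutant was 0.18, closer to the asp1-H397A level. Single genes ranged from -1.19 for ssa1 to 2.02 for opt3, which met the level limit only in the triple mutant. The next highest was fip1 at 1.46. The triple mutant was nearest to asp1-H397A for 18 genes, nearest to WT for 18 and nearest to ssu72-C13S for 9. It fell below both single mutants for 12 genes, between asp1-H397A and WT for 14, between WT and ssu72-C13S for 16 and above both for 3. No test was made of these positions, which rest on the groups used in the choice.

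**Figure D2:**
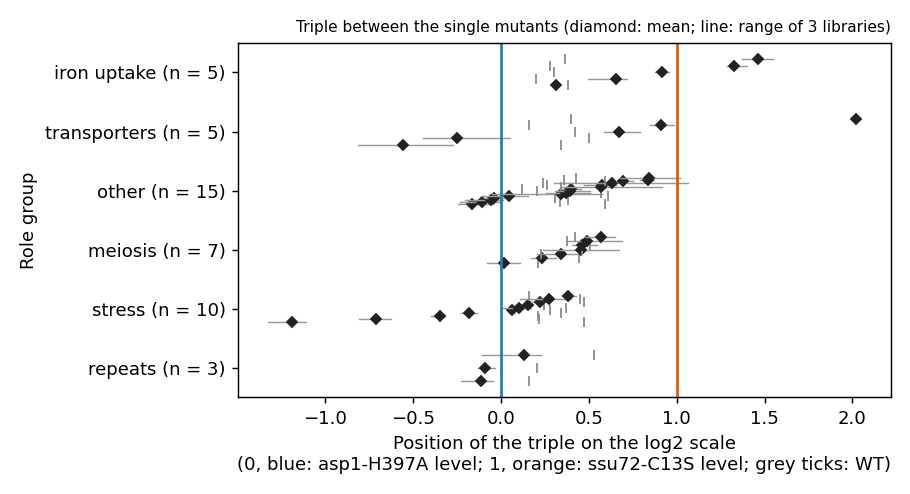
Position of the triple mutant between the single mutants on the log2 scale (x axis: 0, blue line, the asp1-H397A level; 1, orange line, the ssu72-C13S level; grey ticks, WT) for the 45 genes in 6 role groups (y axis; diamonds are means and grey lines the range of the 3 triple libraries). Iron uptake genes extend from 0.31 to 1.46 and stress genes from -1.19 to 0.38.

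Role groups were assigned by hand after values had been seen, and the annotated product names of members such as lsd90, ddr48 and meu18 give no role. The groups comprised 5 iron uptake genes, 10 stress genes, 7 meiotic or sporulation genes, 5 other transporters, 3 repeat genes and 15 others. Fission yeast takes up iron by reducing it at the cell surface and passing it through an oxidase and permease pair, or by importing iron bound to siderophores, and these genes are repressed by the GATA factor Fep1 when iron is plentiful.

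Of the 5 iron uptake members, 4 rose against WT in the triple mutant, where 26.2% of all genes did, and 1 did not. Comparisons of single members with ssu72-C13S or asp1-H397A, here and below, use the libraries that chose the genes. The permease gene fip1 had 266, 381 and 310 CPM in the triple mutant, 113, 114 and 143 CPM in ssu72-C13S, 15.4, 16.2 and 14.6 CPM in asp1-H397A, and 31.4, 34.2 and 33.4 CPM in WT. Every triple library exceeded every other library. The log2 fold change was 3.27 ± 0.13 (SE) against WT (adjusted p = 3.99e-10), 1.37 ± 0.12 against ssu72-C13S (adjusted p = 3.83e-07) and 4.37 ± 0.14 against asp1-H397A (adjusted p = 1.49e-10).

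Its neighbour fio1, which encodes the multicopper oxidase that works with the permease, followed the same order with 75.3, 98.5 and 75.3 CPM in the triple mutant, 34.7, 36.2 and 42.7 CPM in ssu72-C13S, 3.12, 3.20 and 2.78 CPM in asp1-H397A, and 6.07, 6.02 and 7.18 CPM in WT. No 2 of the 4 genotypes overlapped. Its log2 fold changes were 3.69 ± 0.14 (SE) against WT (adjusted p = 2.04e-10), 1.13 ± 0.12 against ssu72-C13S (adjusted p = 2.84e-06) and 4.77 ± 0.15 against asp1-H397A (adjusted p = 1.49e-10). In the annotation fip1 and fio1 lie next to each other on opposite strands.

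The siderophore transporter genes str1 and str3 stayed below ssu72-C13S. Levels of str1 were 165, 217 and 184 CPM in the triple mutant, 238, 220 and 291 CPM in ssu72-C13S, 8.67, 7.79 and 7.70 CPM in asp1-H397A, and 19.6, 28.1 and 21.7 CPM in WT. The triple libraries were high, just below those of ssu72-C13S and far above the other genotypes. The log2 fold change was 3.031 ± 0.14 (SE) against WT (adjusted p = 2.15e-09), 4.55 ± 0.16 against asp1-H397A (adjusted p = 2.80e-10) and -0.40 ± 0.13 against ssu72-C13S (adjusted p = 0.0172). The last call was lost without replicate 3 of ssu72-C13S (-0.28, adjusted p = 0.104) and without replicate 1 of the triple mutant (-0.31, adjusted p = 0.0560).

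Counts of str3 were low, with 2.58, 2.497 and 1.29 CPM in the triple mutant, 5.46, 4.21 and 7.24 CPM in ssu72-C13S, 0, 0.0406 and 0.0397 CPM in asp1-H397A, and 0.305, 0.246 and 0.543 CPM in WT. The triple libraries lay below all of ssu72-C13S and above all of WT and asp1-H397A. It rose against WT by 2.57 ± 0.38 on the log2 scale (SE, adjusted p = 7.67e-05). Only 2 counts were found over the 3 asp1-H397A libraries against 145 in the triple mutant, a ratio of rates of 78.8 with an exact 95% interval of 21.4 to 657 that covers counting error only.

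The fifth iron member, the ferric-chelate reductase gene frp1, did not follow the others. It had 4.69, 4.61 and 4.99 CPM in the triple mutant, 26.4, 25.6 and 27.5 CPM in ssu72-C13S, 2.08, 1.99 and 1.99 CPM in asp1-H397A, and 5.31, 5.91 and 6.05 CPM in WT. The triple libraries were close to WT, above asp1-H397A and well below ssu72-C13S. Its log2 fold change was -0.27 ± 0.10 (SE) against WT (adjusted p = 0.0358), a call that was lost without replicate 1 or 2 of the triple mutant, 1 or 2 of ssu72-C13S, 1 of asp1-H397A or 2 or 3 of WT (adjusted p = 0.0507 to 0.150) and with DESeq2 (adjusted p = 0.115), RLE scaling (0.0605), the replicate block (0.0503) or only the 2 groups compared (0.0783). Against ssu72-C13S it was -2.47 ± 0.10 (adjusted p = 2.72e-10), and against asp1-H397A 1.24 ± 0.11 (adjusted p = 3.30e-06).

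**Figure D3:**
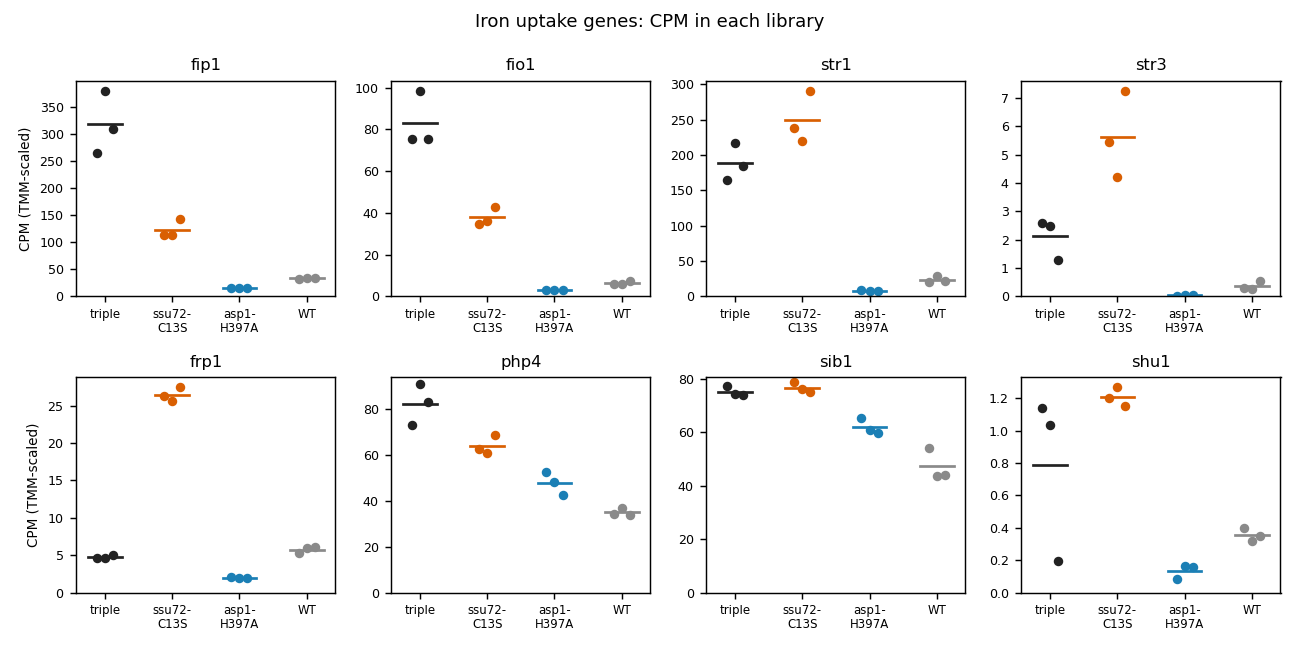
TMM-scaled CPM (y axis, from 0) of 5 members (fip1, fio1, str1, str3, frp1) and 3 other genes of the iron list (php4, sib1, shu1) in each library of the triple mutant, ssu72-C13S, asp1-H397A and WT (x axis; points are libraries, lines means of 3). The triple mutant is highest for fip1 (266 to 381 CPM), while for frp1 it lies near WT (4.61 to 4.99 CPM).

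A list of 15 iron genes, chosen with earlier results known and holding the 5 members, had 10 genes higher and 2 lower than WT in the triple mutant, beside 26.2% and 25.7% of all genes. Its median log2 fold change was 0.44 where all genes had -0.01. The 2 that were lower were frp1 and vht1, the biotin transporter gene. Against ssu72-C13S the list had 4 genes higher and 5 lower (median -0.07), beside 28.8% and 27.5% of all genes. Against asp1-H397A 8 were higher and 2 lower (median 0.28), beside 15.7% and 21.1%. The 8 include all 5 members, which were chosen as low in asp1-H397A. Among the non-members, php4, which encodes the iron-starvation subunit of the CCAAT-binding repressor, averaged 82.5 CPM in the triple mutant, 64.1 CPM in ssu72-C13S, 47.9 CPM in asp1-H397A and 35.1 CPM in WT, a log2 fold change of 1.23 against WT (adjusted p = 2.9e-07). The siderophore synthesis gene sib1 rose by 0.67 against WT in the triple mutant (adjusted p = 1.8e-05). The vht1 gene had -0.97 against WT (adjusted p = 1.8e-07). The low-count gene shu1, a haem uptake gene and the neighbour of str3, averaged 0.791 CPM in the triple mutant, 1.21 CPM in ssu72-C13S, 0.136 CPM in asp1-H397A and 0.354 CPM in WT; its highest mean was below the 5 CPM limit.

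Most stress members were lower than WT. Of the 10, 7 were lower than WT in the triple mutant, beside 25.7% of all genes, and 1 was higher, beside 26.2%. Against ssu72-C13S 10 of 10 were lower, beside 27.5% of all genes. Against asp1-H397A 4 were higher and 3 lower, beside 15.7% and 21.1%. The members were chosen as high in ssu72-C13S and low in asp1-H397A, so directions against the single mutants are partly set by the choice. Without replicate 3 of asp1-H397A and replicate 1 of the triple mutant the counts against WT were 8 lower and 1 higher. Many genes of this kind are raised on heat, oxidants or starvation, and some encode chaperones, redox enzymes or metal-binding proteins.

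The Hsp70 chaperone gene ssa1 had 31.3, 38.2 and 36.9 CPM in the triple mutant, 252, 276 and 273 CPM in ssu72-C13S, 107, 115 and 97.6 CPM in asp1-H397A, and 151, 170 and 174 CPM in WT. The 4 genotypes did not overlap and the triple mutant was lowest. Its log2 fold change was -2.22 ± 0.09 (SE) against WT (adjusted p = 5.75e-10), -2.92 ± 0.09 against ssu72-C13S (adjusted p = 3.32e-11) and -1.59 ± 0.09 against asp1-H397A (adjusted p = 2.80e-08). The small heat shock protein gene hsp16 had 37.0, 36.9 and 33.2 CPM in the triple mutant, 181, 219 and 217 CPM in ssu72-C13S, 52.0, 59.7 and 56.2 CPM in asp1-H397A, and 79.2, 59.8 and 82.4 CPM in WT. The triple libraries were again below all others, with log2 fold changes of -1.05 ± 0.12 (SE) against WT (adjusted p = 5.95e-06) and -0.65 ± 0.12 against asp1-H397A (adjusted p = 7.91e-04).

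A trehalose-phosphate synthase gene, SPAC22F8.05, averaged 22.4 ± 1.92 CPM in the triple mutant, 113 ± 9.75 CPM in ssu72-C13S, 43.9 ± 4.56 CPM in asp1-H397A and 53.9 ± 4.70 CPM in WT (SD, n = 3 each). It was lowest in the triple mutant as well, by a log2 fold change of -1.27 ± 0.10 (SE) against WT (adjusted p = 3.60e-07) and -0.97 ± 0.10 against asp1-H397A (adjusted p = 1.23e-05). The metallothionein gene zym1 had 11.24, 10.2 and 10.7 CPM in the triple mutant, 38.8, 35.9 and 38.1 CPM in ssu72-C13S, 13.04, 11.8 and 14.2 CPM in asp1-H397A, and 16.6, 18.5 and 21.3 CPM in WT. All triple libraries of zym1 were below all others, with a log2 fold change of -0.81 ± 0.11 (SE) against WT (adjusted p = 3.46e-05), but the difference from asp1-H397A, -0.28 ± 0.11, did not pass the test (adjusted p = 0.0636) unless replicate 2 of asp1-H397A was left out (-0.35, adjusted p = 0.0413).

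For ddr48 and lsd90 the triple mutant lay near asp1-H397A, and for ecl1 between asp1-H397A and WT. The gene lsd90 had 16.9, 17.4 and 16.7 CPM in the triple mutant, 110, 98.6 and 102 CPM in ssu72-C13S, 15.9, 15.2 and 14.2 CPM in asp1-H397A, and 27.2, 24.98 and 25.3 CPM in WT, so that the triple and asp1-H397A libraries were both low. Its log2 fold change was -0.60 ± 0.08 (SE) against WT (adjusted p = 2.67e-05) and 0.17 ± 0.08 against asp1-H397A (adjusted p = 0.113). The stress protein gene ddr48 had -0.99 ± 0.17 against WT (adjusted p = 2.82e-04) and 0.40 ± 0.19 against asp1-H397A (adjusted p = 0.121), which passed without replicate 3 of asp1-H397A (0.62, adjusted p = 0.0140) or replicate 3 of the triple mutant (0.53, adjusted p = 0.0499). The lifespan-extension gene ecl1 averaged 36.6 CPM in the triple mutant, 125 CPM in ssu72-C13S, 25.7 CPM in asp1-H397A and 54.7 CPM in WT, lower than WT (-0.58 ± 0.08, adjusted p = 6.43e-05) and higher than asp1-H397A (0.51 ± 0.09, adjusted p = 4.95e-04).

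The sulfiredoxin gene srx1 was the only stress member higher than WT. The gene, whose enzyme repairs over-oxidised peroxiredoxin, had 15.98, 20.3 and 17.1 CPM in the triple mutant, 100, 98.7 and 97.0 CPM in ssu72-C13S, 6.28, 6.33 and 5.04 CPM in asp1-H397A, and 9.24, 10.3 and 8.498 CPM in WT. The 4 genotypes did not overlap. The log2 fold change was 0.93 ± 0.11 (SE) against WT (adjusted p = 1.58e-05) and -2.47 ± 0.11 against ssu72-C13S (adjusted p = 1.14e-09). The bZIP factor gene atf31 and the oxidoreductase gene SPAPB24D3.08c did not pass against WT, at -0.34 (adjusted p = 0.0701) and -0.18 (adjusted p = 0.0907). The first passed without replicate 2 of the triple mutant (-0.47, adjusted p = 0.0256) or replicate 3 of WT (-0.43, adjusted p = 0.0412), and SPAPB24D3.08c without replicate 3 of asp1-H397A (adjusted p = 0.00911).

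**Figure D4:**
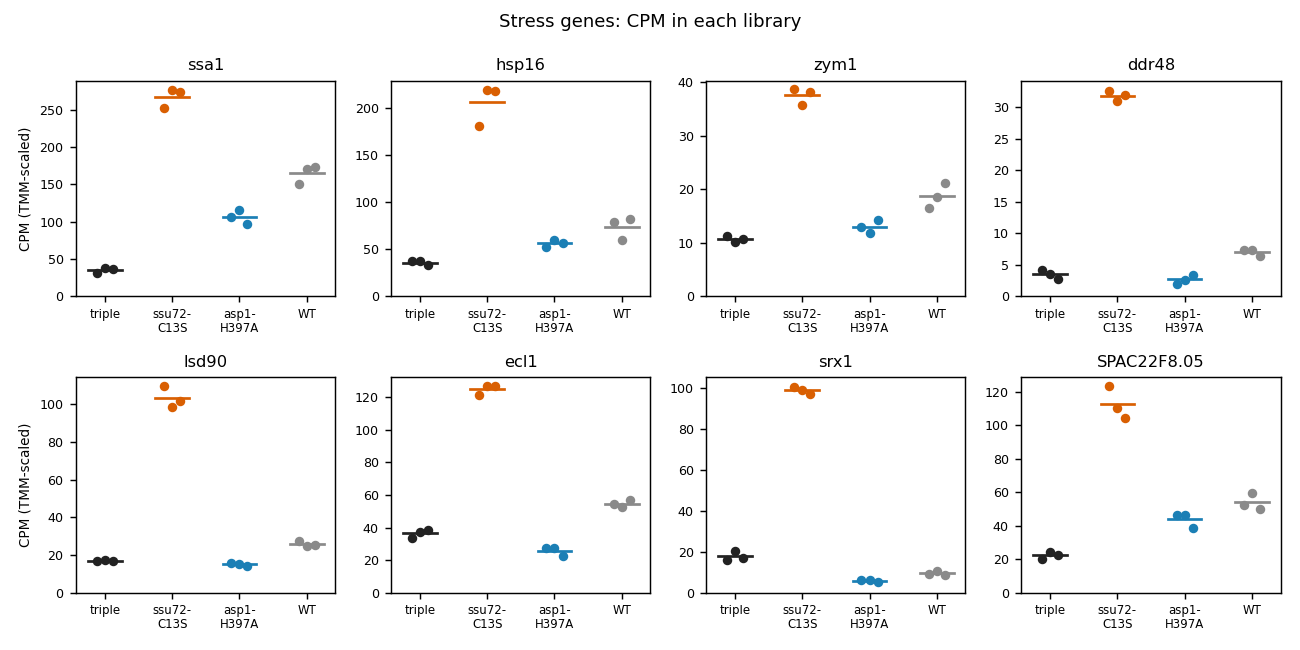
TMM-scaled CPM (y axis, from 0) of 8 of the 10 stress members in each library of the triple mutant, ssu72-C13S, asp1-H397A and WT (x axis; points are libraries, lines means of 3). In all 8 the ssu72-C13S libraries are highest, and ssa1 in the triple mutant lies at 31.3 to 38.2 CPM, below every other genotype.

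Most genes of a heat shock list, which includes the members ssa1 and hsp16, were lower in the triple mutant. Of its 12 genes, 9 were lower than WT and 1 higher (median -0.49), where 25.7% of all genes were lower and 26.2% higher. Against ssu72-C13S 9 were lower (median -0.92), beside 27.5% of all genes. Against asp1-H397A 10 were lower (median -0.58), beside 21.1%. Among them hsp104, the disaggregase gene, averaged 37.6 CPM in the triple mutant, 143 CPM in ssu72-C13S, 88.9 CPM in asp1-H397A and 83.5 CPM in WT. The co-chaperone gene sti1 averaged 165 CPM in the triple mutant, 463 CPM in ssu72-C13S, 331 CPM in asp1-H397A and 315 CPM in WT. The 1 gene higher than WT was ssa2, a second Hsp70 gene, at 0.43 (adjusted p = 0.0038). ssa1 and ssa2 are similar in sequence, and reads shared between them could be counted to either.

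A list of 25 core stress genes, which holds the members ssa1, hsp16 and srx1, had 8 genes higher and 11 lower than WT in the triple mutant, where 26.2% of all genes were higher and 25.7% lower. Against ssu72-C13S 3 were higher and 19 lower, beside 28.8% and 27.5% of all genes. The heat shock protein gene hsp9 averaged 74.1 CPM in the triple mutant, 867 CPM in ssu72-C13S, 187 CPM in asp1-H397A and 664 CPM in WT, a log2 fold change of -3.16 against WT (adjusted p = 3.6e-13). The catalase gene ctt1 had -1.75 (adjusted p = 3.8e-08). On the higher side, the glutathione transferase gene gst2 averaged 175 CPM in the triple mutant, 850 CPM in ssu72-C13S, 110 CPM in asp1-H397A and 93.6 CPM in WT, and the thioredoxin gene trx2 had 0.82 against WT (adjusted p = 2.6e-07).

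Most of the 7 meiotic and sporulation members, of a kind normally kept low in vegetative cells, did not pass against WT in the triple mutant. Of the 7, 7 were lower in the triple mutant than in ssu72-C13S, beside 27.5% of all genes, and 5 higher than in asp1-H397A, beside 15.7%. These directions are partly set by the choice of genes. Against WT 1 passed, as higher, beside 26.2% of all genes. The gene rec10, for a component of the meiotic chromosome axis, had 18.2, 12.3 and 12.5 CPM in the triple mutant, 26.0, 28.3 and 25.4 CPM in ssu72-C13S, 7.71, 6.16 and 9.45 CPM in asp1-H397A, and 13.2, 11.96 and 12.03 CPM in WT. The triple and WT libraries overlapped, and the log2 fold change between them was 0.21 ± 0.16 (SE, adjusted p = 0.290). For meu14, a sporulation gene of low count, it was 0.00 ± 0.25 in size (adjusted p = 0.993), and for mde5, an alpha-amylase gene, 0.33 ± 0.21 (adjusted p = 0.214). On the other strand rec10 overlaps zip1, which averaged 739 CPM in the triple mutant and 651 CPM in WT. The members meu14, mde5 and meu27 also overlap genes on the other strand, and the strand setting of the counting is not given. Longer lists moved in both directions against WT. Of 15 tested transcripts controlled by Mmi1, which marks meiotic RNAs for removal, 9 were higher and 2 lower (median 0.54; rec10 is the 1 member among them), and of 11 tested genes of mating and early meiosis, none of them a member, 1 was higher and 9 lower (median -0.71), where all genes had 26.2% higher and 25.7% lower.

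The exception by call was meu18, with 43.6, 36.9 and 40.9 CPM in the triple mutant, 61.9, 60.6 and 62.5 CPM in ssu72-C13S, 22.7, 22.4 and 24.1 CPM in asp1-H397A, and 36.1, 32.2 and 36.4 CPM in WT. It was higher than WT by 0.21 ± 0.08 (SE, adjusted p = 0.0437), and the call was lost under 11 alternatives, among them leaving out replicate 1 or 3 of the triple mutant or any 1 library of ssu72-C13S or WT (adjusted p = 0.0558 to 0.167). For meu27 the triple mutant sat with asp1-H397A, at 1.06, 0.818 and 0.643 CPM in the triple mutant, 6.69, 6.05 and 6.01 CPM in ssu72-C13S, 0.650, 0.608 and 1.15 CPM in asp1-H397A, and 1.07, 1.41 and 1.55 CPM in WT. Its change against WT, -0.65 ± 0.26, missed the threshold (adjusted p = 0.0515) but passed without replicate 1 of the triple mutant (-0.85, adjusted p = 0.0278), replicate 2 or 3 of asp1-H397A (adjusted p = 0.0470 and 0.0238) or replicate 1 of WT (-0.80, adjusted p = 0.0316). The sterol deacetylase gene say1, also known as a meiotically upregulated gene, and mug15 had -0.06 (adjusted p = 0.715) and -0.29 (adjusted p = 0.155); mug15 passed without replicate 2 of WT (-0.46, adjusted p = 0.0165).

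The 3 repeat genes were lower than WT in the triple mutant, beside 25.7% of all genes, and lower than ssu72-C13S, beside 27.5%. The direction against ssu72-C13S is partly set by the choice of genes. Their log2 fold changes against asp1-H397A, from -1.005 to 0.37, did not pass the test. The subtelomeric RecQ-type helicase genes tlh1 and tlh2 are near-identical copies, and Tf2-11 is 1 of a family of Tf2 retrotransposons, so reads may be shared and these values are uncertain. tlh1 had 0.0845, 0.215 and 0.0989 CPM in the triple mutant, 6.18, 5.40 and 6.16 CPM in ssu72-C13S, 0.130, 0.122 and 0.556 CPM in asp1-H397A, and 0.762, 0.809 and 0.504 CPM in WT. The triple libraries were below all of WT and ssu72-C13S and overlapped asp1-H397A. The counts summed to 9 in the triple mutant and 61 in WT, a ratio of rates of 0.191 with an exact 95% interval of 0.0835 to 0.387 for counting error. For tlh2 they summed to 23 in the triple mutant and 89 in WT, a ratio of 0.335 (0.202 to 0.535). For Tf2-11 the log2 fold change against WT stood at -1.04 ± 0.30 (SE, adjusted p = 0.0106), which did not pass without replicate 3 of WT (-0.80, adjusted p = 0.0558).

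The 5 other transporters diverged. The oligopeptide transporter gene opt3 had 5.62, 5.55 and 5.74 CPM in the triple mutant, 2.44, 2.65 and 3.42 CPM in ssu72-C13S, 1.39, 1.62 and 0.993 CPM in asp1-H397A, and 1.80, 1.90 and 1.79 CPM in WT. All triple libraries were above all others, with log2 fold changes of 1.62 ± 0.16 (SE) against WT (adjusted p = 2.48e-06) and 0.99 ± 0.15 against ssu72-C13S (adjusted p = 1.04e-04). On library totals opt3 reached the 5 CPM limit only in the triple mutant (5.02 CPM, against 3.07 CPM in ssu72-C13S). A high triple level was therefore a condition of its choice, and these tests are not independent of it. The thiamine transporter gene SPCC794.03 had 10.2, 10.9 and 12.6 CPM in the triple mutant, 12.8, 13.2 and 12.7 CPM in ssu72-C13S, 2.43, 3.082 and 2.38 CPM in asp1-H397A, and 3.32, 3.66 and 3.42 CPM in WT. Its triple libraries were high, with 1.70 ± 0.12 against WT (adjusted p = 9.83e-08) and -0.20 ± 0.11 against ssu72-C13S (adjusted p = 0.141).

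In contrast the sulfate transporter gene sul1 had 78.1, 108 and 87.5 CPM in the triple mutant, 238, 229 and 232 CPM in ssu72-C13S, 133, 137 and 113 CPM in asp1-H397A, and 160, 158 and 152 CPM in WT. It was lowest in the triple mutant, at -0.78 ± 0.10 (SE) against WT (adjusted p = 2.28e-05) and -0.48 ± 0.10 against asp1-H397A (adjusted p = 0.00223). The glucose transporter gene ght1 averaged 2.00 CPM in the triple mutant, 7.86 CPM in ssu72-C13S, 2.67 CPM in asp1-H397A and 4.66 CPM in WT, with -1.22 ± 0.23 against WT (adjusted p = 5.07e-04). A transporter gene, SPBC1271.10c, was higher than WT by 0.29 ± 0.09 (adjusted p = 0.0160), a call lost without replicate 2 of the triple mutant (0.23, adjusted p = 0.109) or replicate 3 of WT (0.25, adjusted p = 0.0655). This last gene overlaps the phosphate-responsive gene tgp1 on the other strand, which averaged 777 CPM in the triple mutant, 12.2 CPM in ssu72-C13S, 399 CPM in asp1-H397A and 19.0 CPM in WT, a different order of genotypes.

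Among the 15 remaining members, 5 were higher and 5 lower than WT in the triple mutant, shares near the 26.2% and 25.7% of all genes. In directions partly set by the choice, 11 were lower than in ssu72-C13S, beside 27.5% of all genes, and 9 higher than in asp1-H397A, beside 15.7%. The gene SPAPB1A11.05, whose identifier has no entry of its own in the annotation, had 5.50, 4.95 and 3.91 CPM in the triple mutant, 21.0, 22.5 and 20.7 CPM in ssu72-C13S, 1.47, 1.42 and 1.75 CPM in asp1-H397A, and 2.20, 2.18 and 2.33 CPM in WT. Genotypes other than the triple mutant and ssu72-C13S were low, and the change against WT was 1.10 ± 0.14 (SE, adjusted p = 1.92e-05). A gene for general transcription factor TFIIB, sua7, rose by 0.57 ± 0.08 against WT (adjusted p = 7.42e-05), with 33.9, 33.0 and 31.7 CPM in the triple mutant, 35.8, 39.1 and 38.2 CPM in ssu72-C13S, 16.3, 16.8 and 15.8 CPM in asp1-H397A, and 20.6, 21.5 and 24.2 CPM in WT. The GTPase regulator gene npg1 rose by 0.41 ± 0.12 (adjusted p = 0.0119), which missed without replicate 2 of WT (0.35, adjusted p = 0.0553), and SPCC569.09 by 0.60 ± 0.11 (adjusted p = 3.39e-04).

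SPAC11D3.01c, a Con-6 family gene, had 22.95, 18.98 and 18.6 CPM in the triple mutant, 41.8, 38.8 and 41.4 CPM in ssu72-C13S, 3.21, 3.61 and 4.84 CPM in asp1-H397A, and 16.4, 14.5 and 17.4 CPM in WT. The difference from asp1-H397A was 2.37 ± 0.15 (SE, adjusted p = 6.12e-08), while that from WT, 0.33 ± 0.13 (adjusted p = 0.0474), was lost without replicate 1 of the triple mutant (0.22, adjusted p = 0.161) and without any 1 library of ssu72-C13S or WT (adjusted p = 0.0545 to 0.166). The epimerase gene gal10 had 3.64, 2.71 and 2.82 CPM in the triple mutant, 14.4, 14.4 and 16.7 CPM in ssu72-C13S, 3.033, 2.92 and 5.72 CPM in asp1-H397A, and 9.58, 8.48 and 8.34 CPM in WT, -1.52 ± 0.21 against WT (adjusted p = 5.20e-05); it overlaps tgd1 on the other strand. The uncharacterised gene SPAC23H4.05c was lower by a similar amount, -1.70 ± 0.24 (adjusted p = 4.98e-05), and SPAC637.03, SPCC737.04 and SPCC338.18 were also lower, by log2 fold changes from -1.004 to -0.77.

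Of the last 5 members, which did not pass against WT, 4 are given here, namely prl65 (-0.33, adjusted p = 0.0973), mag1, a DNA glycosylase gene (0.22, adjusted p = 0.337), pof14, an F-box protein gene (0.31, adjusted p = 0.0573) and the small nucleolar RNA sno12 (0.63, adjusted p = 0.0529). For sno12, replicate 1 of the triple mutant held 5.79 CPM where the other 2 held 2.58 and 2.72, and without it the log2 fold change against WT was 0.14 (adjusted p = 0.504). It passed without replicate 2 or 3 of the triple mutant, or without replicate 1 or 3 of asp1-H397A (0.63 to 0.85, highest adjusted p = 0.0421). The call for pof14 was gained without replicate 2 of the triple mutant, replicate 1 or 3 of asp1-H397A or replicate 3 of WT (highest adjusted p = 0.0463), and that for prl65 without replicate 1 of the triple mutant (adjusted p = 0.0387).

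If the log2 changes of the 2 single mutants simply added, the median of the set would stand at 0.52 against WT, where the triple mutant stood at -0.18. The triple mutant was below the sum for 36 genes and above it for 9. This sum uses the contrasts that chose the genes, so it is given as a description with no test, and the triple mutant is also labelled as deleted for aps1. The largest distances below the sum were -3.0035 for tlh2, -2.71 for tlh1, -2.27 for ssa1, -2.11 for hsp16 and -2.01 for SPAC22F8.05 on the log2 scale. Above the sum they were 2.44 for fip1, 2.09 for fio1, 1.22 for opt3, 1.07 for str1 and 0.93 for SPAC11D3.01c. Of these, opt3 met the level limit only in the triple mutant.

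Gene order and overlap were read from RefSeq's ASM294v3 annotation, in which 44 of the 45 members have an entry. Of these, 20 (45.5%) overlap a gene on the opposite strand, where 2666 of 5060 genes tested (52.7%) do. The library kit is stranded, but the strand setting used in counting is not stated, so reads of overlapping pairs may not be told apart. The neighbour of say1, nam3, averaged 34.9 CPM in the triple mutant, 57.7 CPM in ssu72-C13S, 4.12 CPM in asp1-H397A and 10.7 CPM in WT, chosen for mention after its values were seen. The 5 non-members whose 4 group means followed the set's mean profile most closely were SPBC17A3.08, sod1, pet117, vps26 and SPCC132.03, with Pearson's r from 0.994 to 0.998 over 4 genotypes, although their levels differed far less: sod1 averaged 1375 CPM in the triple mutant, 1723 CPM in ssu72-C13S, 1203 CPM in asp1-H397A and 1331 CPM in WT.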

How the data were processed

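Read counts per gene were used as the authors deposited them, whole numbers for 6986 genes in 12 libraries (1 repeated identifier with 0 counts was dropped; 0 columns were unused). HISAT2 2.1.0, SAMtools, HTSeq 0.10.0, DESeq2 and the build ASM294v2 are named in the submitters' processing notes; the strand setting is not given in the sources used here. The members, gene lists and tests were chosen with earlier results of these data known. Counts were fitted in edgeR 4.0.16 (R 4.3.3) with TMM scaling, filterByExpr at a minimum count of 10 (6189 genes kept), 1 coefficient per genotype over all 12 libraries and quasi-likelihood tests, with Benjamini-Hochberg adjustment and a threshold of 0.05. On data simulated for the triple mutant against WT over 6158 genes, 191 of 200 changed genes were recovered, with 11 false calls. Only these 200 genes were set to differ there. In the measured libraries 26.2% of the 6189 genes tested were higher and 25.7% lower than WT in the triple mutant. Recovery where so many genes differ, or by size of log2 fold change, was not tested. DESeq2 1.42.0, other scalings, filters, member rules and left-out libraries were alternatives. Members named with values were the 15 with the largest gap between single mutants, the 5 most raised and 5 most lowered in the triple mutant, those just inside each limit and those in a list, 29 in all; 1 of them is counted among the members but its own values are not reported here, and the other 16 were described after their values were seen. Counting intervals are exact at 95% and cover counting error only. RefSeq ASM294v3 served for names and gene order only: 6833 identifiers matched by locus tag and 4 by synonym. No sequence or coordinate is printed, since a genome of the files' build was not used here.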

Additional observations from a re-analysis of the deposited data

How the results depend on the processing

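The limits of the member rule moved the results most. With TMM-scaled CPM in the rule 28 genes passed, 14 differed from asp1-H397A, and the median log2 fold change against WT was -0.59 at a position of 0.18. A threshold of 0.75 left 19 genes, of which 16, 19 and 12 differed from WT, ssu72-C13S and asp1-H397A, with a median of -0.27. A threshold of 1 left 8 genes, of which 8, 8 and 6 differed, with the median turned to 0.0268 and a position of 0.50. A minimum of 20 CPM left 25 genes, of which 21 and 22 differed from WT and ssu72-C13S, with the median turned to 0.21 and a position of 0.39. These hold fewer genes by construction. A pseudocount of 0.1 gave a position of 0.28. Without replicate 3 of asp1-H397A in the rule the median was -0.0226 and the position 0.28. Upper-quartile scaling gave a median of -0.25, and leaving out replicate 3 of asp1-H397A and replicate 1 of the triple mutant together -0.26; the cause was not tested.

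Leaving out each library in turn gave 29 to 36 members changed against WT, 39 to 42 against ssu72-C13S and 29 to 32 against asp1-H397A. It gave 9 to 13 changed iron genes, medians of -0.26 to -0.15 and positions of 0.30 to 0.37. Libraries left out of the member rule instead gave 40 to 55 members. The 55 came without replicate 3 of asp1-H397A, with 48 changed against ssu72-C13S, a median of -0.0226 and a position of 0.28. With the replicate number as a block, 32, 41 and 30 members changed in the 3 comparisons and 11 iron genes; the numbers do not pair the samples, with same-number correlations from -0.43 to 0.32.

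Of the log2 fold changes of single genes, 3317 values under alternatives kept direction and side of the threshold, 62 newly passed, 62 no longer passed and 16 turned sign, all 16 for differences that did not pass. Against asp1-H397A these were tlh1 without replicate 3 of asp1-H397A (range with libraries left out -1.53 to 0.35), gal10 (-0.52 to 0.0421), SPAC23H4.05c (-0.0898 to 0.64), SPAC637.03 (-0.24 to 0.015) and meu27 (-0.13 to 0.43). Against WT they were rec10 without both libraries that stood apart (-1e-04) and meu14, at 0.0125 with DESeq2 size factors, 0.0094 with DESeq2 and -0.32 to 0.21 with libraries left out.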
